A study of Mus musculus with 16 samples.

Results

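The 10 genes described here encode chemokines that glia, neurons and vessels of the brain can release: Ccl2, Ccl3, Ccl4, Ccl6, Ccl9, Ccl12, Cxcl10, Cxcl12, Cxcl16 and Cx3cl1. They were chosen by name, and each symbol matched 1 row of a table of 21804 genes. The table came from RNA sequencing of brain tissue of C57BL/6 mice aged 4 months. All 8 animals carried the Pdgfb ret allele, which lacks the stretch that holds the growth factor PDGF-B close to the vessel, and which is present in every cell of the animal. The 4 ret/wt animals, with 1 ret copy and 1 wild-type copy, served as controls, and the 4 ret/ret animals had no wild-type copy. Every animal gave 1 library of cortex and 1 of thalamus, so that there were 4 groups of 4 libraries, and no group lacked the ret allele. In ret/ret thalamus the pieces were calcifications found by their autofluorescence and cut out, whereas ret/wt thalamus was tissue of the same region. Genotype, calcification and the way of picking the tissue therefore cannot be told apart in thalamus. Pdgfb itself was not analysed here.

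Chemokines are small secreted proteins that bind G protein-coupled receptors on leukocytes and glia and direct their movement. In the brain, microglia and other macrophages are the usual source of Ccl3, Ccl4, Ccl6 and Ccl9, interferons induce Cxcl10, cells of the vessel wall and meninges make Cxcl12, and neurons make Cx3cl1 (fractalkine), whose receptor Cx3cr1 sits on microglia. Cxcl16 and Cx3cl1 are made as membrane proteins and are released by the proteases Adam10 and Adam17.

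The libraries held 13415391 to 29135064 expected counts each, and 3 counts, taken as the limit that a count of 0 allows, corresponded to 0.110 to 0.235 CPM, counts per 1000000 of a library after TMM scaling over all 16. Markers of cortical neurons summed to 692 to 2462 CPM in cortex and 14.6 to 268 CPM in thalamus, and markers of thalamic neurons to 35.7 to 93.7 and 237 to 2101 CPM. The cortical sum in ret/ret thalamus replicate 4, 268 CPM, was above the thalamic sum of 237 CPM, and in the other 15 libraries the sum of the labelled region was the larger. Some cortex libraries held markers of other tissue: cerebellum markers summed to 2786 CPM in ret/ret replicate 2 and 1038 CPM in ret/wt replicate 3, and choroid plexus markers to 1145 CPM in ret/wt replicate 4. The Y-linked gene Ddx3y was at 55.2 to 68.7 CPM in both libraries of ret/wt replicate 3 and ret/ret replicate 2, and at 0.219 CPM or less in the rest. The labels name an animal for each library, and 2 libraries of 1 animal share it.

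**Figure D1:**
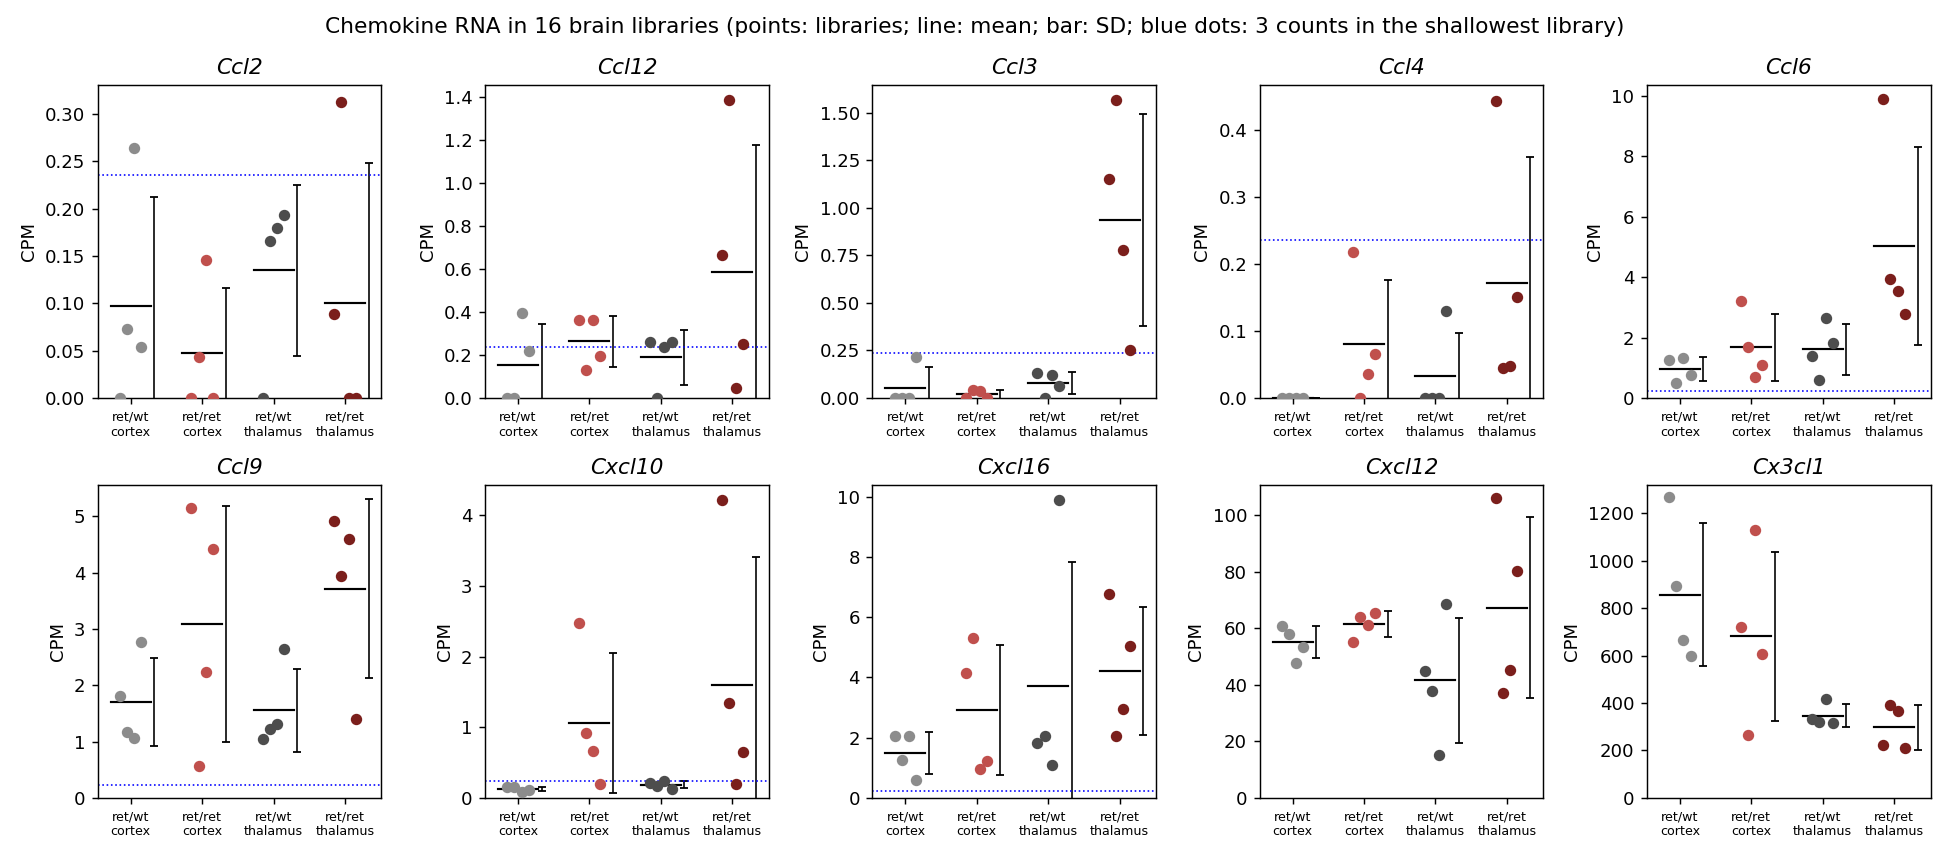
Level of each of the 10 chemokine genes in CPM (y axis, linear, from 0) in the 4 groups (x axis). Points are libraries, the line is the mean and the bar is ± 1 SD over 4 libraries, cut off at 0; the dotted line marks 3 counts in the shallowest library (0.235 CPM) in the panels with low values. Ccl3 lay above that line in ret/ret thalamus only, and Cx3cl1 lay between 208 and 1267 CPM.

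The 10 genes covered a wide span of levels. Per kilobase of exon, Cx3cl1 was the highest in all 4 groups, with means of 75.5 to 218 CPM per kb, and Cxcl12 was the next, with means of 5.09 to 8.22 CPM per kb. The lowest library of Cx3cl1 lay above the highest library of Cxcl12 in each group. Cxcl12 in turn lay clear of the third gene in both cortex groups, but not in the thalamus groups, where Cxcl16 in ret/wt and Ccl6 in ret/ret reached into its range. Below Cxcl12, the ranges of neighbours overlapped in all 4 groups, except that Ccl4 stood at 0 below Cxcl10 in ret/wt cortex. Ccl6, Ccl9 and Cxcl16 had means of 0.492 to 2.80 CPM per kb. In ret/wt cortex Ccl2, Ccl3, Cxcl10 and Ccl4 had means of 0.0859 CPM per kb or less. In ret/ret thalamus Ccl3 had a mean of 1.22 CPM per kb, beside 1.22 CPM per kb for Ccl9.

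Each comparison was fitted over all genes with edgeR's quasi-likelihood test, and a gene was called at a Benjamini-Hochberg adjusted p under 0.05. A filter on low counts kept 5 of the 10 members in both genotype comparisons, 6 in thalamus against cortex of ret/ret animals, 5 in that of ret/wt animals and 6 in the interaction of genotype and region. Between genotypes, 0 of 5 tested members were called in thalamus, where 0% of 14767 genes were called, and 0 of 5 in cortex, where 0.021% of 14288 genes were called. At an unadjusted p under 0.05 there were 2 members in thalamus, Ccl6 and Ccl9 (3.93% of all genes), and 0 in cortex (3.77% of all genes). Between regions, 0 of 6 tested members were called in ret/ret animals (9.5% of 14715 genes) and 1 of 5, Cx3cl1, in ret/wt animals (12.6% of 14442 genes). Unadjusted p-values under 0.05 were those of Ccl6 and Cx3cl1 in ret/ret animals (2 members, 26.7% of all genes) and of Cx3cl1 in ret/wt animals (27% of all genes). In the interaction 0 of 6 were called (0% of 15286 genes) and 0 had an unadjusted p under 0.05 (1.6% of all genes). These region and interaction fits had no term for the animal, although each animal gave a library of both regions. With the animal as a replicate block, 1 member, Ccl6, was called between regions of ret/ret animals, where 1177 of 14715 genes were called. The median log2 fold change of the tested members was 0.72 in thalamus and 0.80 in cortex for ret/ret against ret/wt, beside -0.02 and 0.01 over all genes tested. These members passed the filter in either group, so the medians describe 5 genes each and not all 10.

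**Figure D2:**
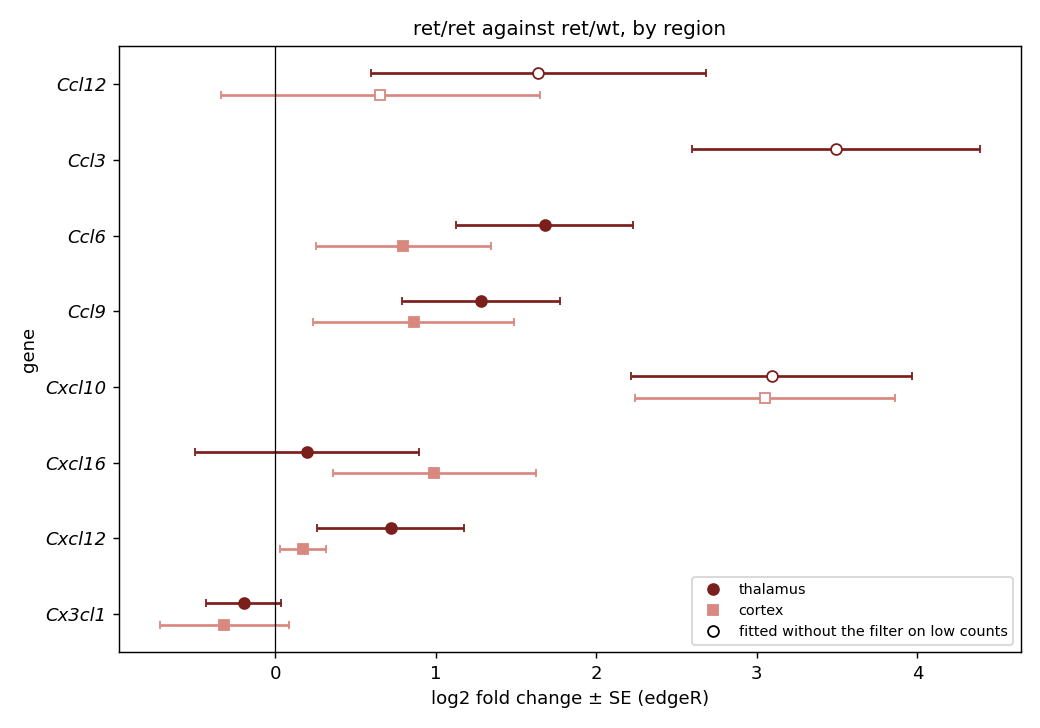
Log2 fold change of ret/ret against ret/wt (x axis, with the SE as bar) for each gene (y axis) in thalamus (circles) and cortex (squares). Open symbols are fits without the filter on low counts; Ccl2, Ccl4 and, in cortex, Ccl3 are left out because nearly all libraries held 3 counts or fewer. Cxcl10 lies near 3 in both regions, Ccl6 and Ccl9 lie above 1 in thalamus, and Cx3cl1 lies below 0 in both.

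Ccl3 (ENSMUSG00000000982, GRCm38 chromosome 11, 83647844 to 83649355, - strand) encodes the macrophage inflammatory protein MIP-1 alpha, a ligand of Ccr1. It was at 1.15, 1.56, 0.776 and 0.252 CPM in ret/ret thalamus (replicates 1 to 4, 5 to 35 counts). In ret/wt thalamus it was at 0.130, 0, 0.120 and 0.0646 CPM, in ret/ret cortex at 0, 0.0436, 0.0365 and 0 CPM, and in ret/wt cortex at 0, 0, 0 and 0.217 CPM. All 4 ret/ret thalamus libraries thus lay above the other 12. In every library of ret/wt thalamus and ret/ret cortex Ccl3 held 3 counts or fewer. The summed counts were 82 in ret/ret thalamus, 6 in ret/wt thalamus and 2 in ret/ret cortex. After scaling to depth, ret/ret thalamus held 11.7 times the reads of ret/wt thalamus (95% interval 5.17 to 32.9) and 38.1 times those of ret/ret cortex (10.2 to 320), intervals that cover counting error only.

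Ccl3 did not pass the filter on low counts. Fitted without it, thalamus gave a log2 fold change between genotypes of 3.49 ± 0.90 (SE). Its edgeR adjusted p was 0.885 and ran from 0.102 to 1.0 across the other settings. Without the filter 1.49% of 20516 genes had all ret/ret thalamus libraries above all ret/wt thalamus libraries. Between the regions of ret/ret animals Ccl3 rose in thalamus by 5.0 ± 0.97 (SE) on the log2 scale, in 4 of 4 animals, when the filter was left off. The edgeR adjusted p was 0.0140 there, where 6.14% of 20641 genes were called, and ran from 0.00072 to 0.0446 across the other settings. The 4 thalamus libraries lay above the 4 cortex libraries, as for 6.34% of those genes. With the filter on and all 8 libraries in, Ccl3 was not tested, and it can pass that filter only through the group where it is high. The interaction was 4.54 ± 1.70 (SE) without the filter, and 1.26 to 5.25 across the other settings. Its unadjusted p was under 0.05, as for 2.16% of all genes, and the edgeR adjusted p was 1.0, so a difference of the genotype effect between regions did not pass. The cortex side of it rests on 2 summed counts in ret/ret and 4 in ret/wt, all 4 in ret/wt replicate 4.

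Ccl4 (MIP-1 beta), a close relative of Ccl3 that lies beside it on chromosome 11, stayed near the limit of detection. It held 10 counts (0.443 CPM) in ret/ret thalamus replicate 1 and 3 counts or fewer in the other 15 libraries. Its summed counts were 15 in ret/ret thalamus and 2 in ret/wt thalamus, 6.44 times as many per depth (95% interval 1.5 to 58.1), with 10 of the 15 in 1 library. Ccl4 was at 0 in all 4 ret/wt cortex libraries, which allows up to 3 counts, or 0.132 to 0.235 CPM, in each.

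Ccl6 (ENSMUSG00000018927, chromosome 11, 83587882 to 83593087, - strand), a rodent chemokine of macrophages that binds Ccr1, was at 9.89, 3.93, 3.54 and 2.77 CPM in ret/ret thalamus and at 1.38, 0.610, 2.63 and 1.81 CPM in ret/wt thalamus. The lowest ret/ret library lay just above the highest ret/wt library. Of all genes, 1.7% had ret/ret thalamus above ret/wt thalamus with no overlap, and among the 5 members that passed the filter Ccl6 was the 1 gene that did. The log2 fold change was 1.68 ± 0.55 (SE, edgeR adjusted p 1.0, and 0.305 to 1.0 across the other settings). Replicate 1 lay far above the other 3 ret/ret libraries, and leaving it out gave 1.10. In cortex Ccl6 was at 3.19, 1.70, 0.694 and 1.11 CPM in ret/ret and at 1.26, 0.511, 1.32 and 0.760 CPM in ret/wt, and the groups overlapped. The log2 fold change in cortex was 0.80 ± 0.54 (SE), and 0.29 without ret/ret cortex replicate 1. Thalamus against cortex gave 1.60 ± 0.58 (SE) in ret/ret and 0.74 ± 0.52 (SE) in ret/wt animals, and thalamus was the higher of the pair in 4 of 4 animals of each genotype. The edgeR adjusted p in ret/ret was 0.112. With the animal as a replicate block it was 0.0440, at a log2 difference of 1.62 ± 0.34 (SE), and DESeq2 called Ccl6 too, so the call depended on the fit. Without ret/ret thalamus replicate 1 the unblocked difference was 1.04. The interaction was 0.87 ± 0.79 (SE, edgeR adjusted p 1.0), or 0.94 ± 0.51 (SE) with the animal as a block.

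Ccl9 (ENSMUSG00000019122, chromosome 11, 83572919 to 83578636, - strand), also a Ccr1 ligand and the neighbour of Ccl6, was at 4.92, 3.93, 4.61 and 1.41 CPM in ret/ret thalamus and at 1.04, 1.22, 1.32 and 2.65 CPM in ret/wt thalamus. Of the ret/ret libraries 3 lay above all ret/wt libraries, and replicate 4 lay among them. The log2 fold change was 1.28 ± 0.49 (SE, edgeR adjusted p 1.0). In cortex it was at 5.16, 0.567, 2.23 and 4.43 CPM in ret/ret and at 1.81, 1.17, 1.06 and 2.77 CPM in ret/wt, a log2 fold change of 0.86 ± 0.63 (SE). The lowest of these, ret/ret cortex replicate 2, was the library with the most cerebellum marker reads, and leaving it out gave 1.22. The regions differed by 0.28 ± 0.63 (SE) in ret/ret and -0.11 ± 0.48 (SE) in ret/wt animals, and thalamus was the higher in 2 of 4 animals of each genotype. The sign of both region values changed under at least 1 alternative.

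Ccl2 and Ccl12, which attract monocytes through Ccr2, were at or near the limit of detection. Ccl2 was at 0 to 0.313 CPM, with 13 of 16 libraries at 3 counts or fewer and 5 to 9 summed counts in a group. In ret/ret thalamus Ccl12 was at 0.665, 1.39, 0.0485 and 0.252 CPM, and in ret/wt thalamus at 0.259, 0, 0.239 and 0.258 CPM. The groups overlapped, since ret/ret replicates 3 and 4 lay within the ret/wt range. Its summed counts in thalamus were 52 and 14, 3.19 times as many per depth (95% interval 1.74 to 6.24), with replicates 1 and 2 holding 46 of the 52. The log2 fold change without the filter was 1.64 ± 1.04 (SE) in thalamus and 0.66 ± 1.0 (SE) in cortex. At this depth no difference of Ccl2 was detectable, with a ratio per depth in thalamus of 0.859 (0.302 to 2.44).

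Members of these gene pairs are similar in sequence, and an estimated count can be split between similar genes. Of the 31-base words in the GENCODE M21 transcripts of Ccl2, Ccl3, Ccl4, Ccl12 and Cx3cl1, 0 also occurred in transcripts of another gene. The share was 1.02% for Ccl6, 3.98% for Ccl9 and 0.11% for Cxcl12, 4.47% for Cxcl10 (with Art3) and 18.5% for Cxcl16 (with its overlapping neighbour Zmynd15). How such words affected the estimated counts was not tested.

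Microglia markers were read beside the chemokine genes. The summed CPM of 11 markers, among them Tmem119 and P2ry12, was 442 to 620 in ret/ret thalamus and 298 to 370 in ret/wt thalamus, with the highest sum in replicate 1. In cortex it was 260 to 545 in ret/ret and 303 to 415 in ret/wt. In thalamus 11 of 11 markers had a positive log2 fold change with a median of 0.66 (-0.02 over all genes), 8 had an unadjusted p under 0.05 with the higher mean in ret/ret (3.05% of all genes) and 0 were called in edgeR. In bulk tissue, more cells of a type and more RNA per cell cannot be told apart. Per 1000 CPM of microglia markers, Ccl3 was at 0.544 to 3.33 CPM in ret/ret thalamus and 0 to 0.435 CPM in ret/wt thalamus. These ranges did not overlap. Ccl6 was at 5.99 to 16 against 2.0 to 7.50 and Ccl9 at 3.05 to 10.4 against 3.48 to 7.15 on that scale, and both overlapped. For Ccl3, ret/wt cortex reached 0.625 CPM on that scale, above the lowest ret/ret thalamus library. Markers of monocytes and neutrophils summed to 0.260 to 5.45 CPM over all libraries, the filter kept 0 of 7 of them in each of the 4 two-group comparisons, and their summed CPM was 0.358 to 3.24 in ret/ret thalamus and 0.820 to 3.65 in ret/wt thalamus. The neutrophil marker Ly6g was at 0 in both ret/ret groups and at 3 counts or fewer in every ret/wt library. Markers of border-associated macrophages summed to 6.26 to 21.4 CPM in ret/ret thalamus and 9.33 to 26.8 CPM in ret/wt thalamus, and 0 of 6 had a positive log2 fold change. What part the microglia markers have in the chemokine values was not tested.

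**Figure D3:**
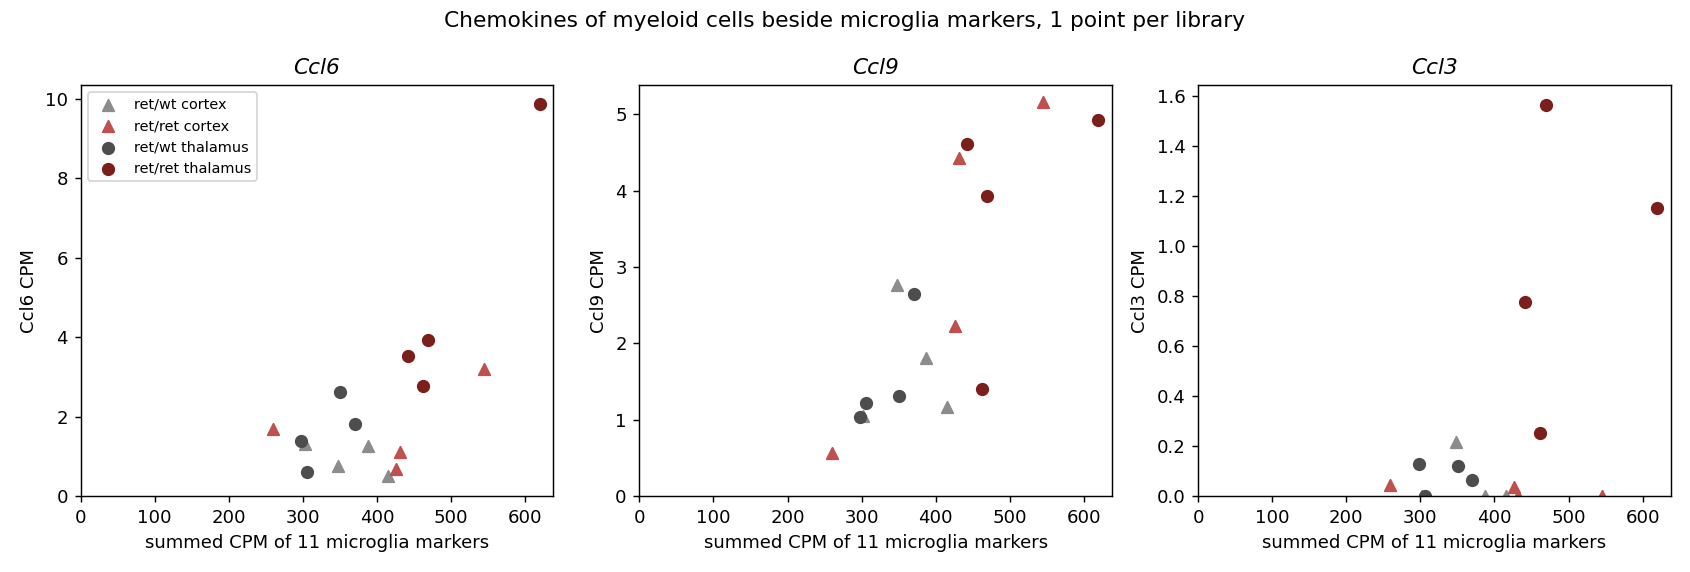
Level of Ccl6, Ccl9 and Ccl3 in CPM (y axes) against the summed CPM of 11 microglia markers (x axes), 1 point per library, with thalamus as circles and cortex as triangles. The 4 ret/ret thalamus libraries lie at 442 to 620 CPM of markers, and Ccl3 is above 0.235 CPM in those 4 libraries alone.

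Cxcl10 (ENSMUSG00000034855, chromosome 5, 92346638 to 92348889, - strand), an interferon-induced attractant of T and NK cells through Cxcr3, had the largest ratio between genotypes in cortex among members with counts in both groups. In ret/ret cortex it was at 2.47, 0.916, 0.657 and 0.195 CPM, and in ret/wt cortex at 0.157, 0.146, 0.0879 and 0.109 CPM. All ret/ret cortex libraries lay above all ret/wt cortex libraries, as they did for 1.34% of 20561 genes without the filter, although replicate 4 held only 3 counts. In ret/ret thalamus it was at 4.21, 1.34, 0.194 and 0.654 CPM and in ret/wt thalamus at 0.216, 0.166, 0.239 and 0.129 CPM, where replicate 3 of ret/ret lay within the ret/wt range. Replicate 1 was the highest and replicate 2 the next in both regions. The summed counts were 76 against 8 in cortex, 8.08 times as many per depth (95% interval 3.90 to 19.4), and 142 against 14 in thalamus, 8.71 times (5.03 to 16.3).

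The ret/wt libraries held 2 to 5 counts of Cxcl10 each, and the gene did not pass the filter in either genotype comparison. Without it the log2 fold change was 3.05 ± 0.81 (SE) in cortex and 3.09 ± 0.88 (SE) in thalamus. Neither passed in edgeR, at adjusted p-values of 0.914 (0.172 to 1.0 across the other settings) and 0.951 (0.166 to 1.0). Without replicate 1 of the ret/ret animals the log2 fold change was 2.24 in cortex and 1.95 in thalamus. In the fit of 16 libraries Cxcl10 passed the filter, and the interaction of genotype and region was 0.0030 on the log2 scale (edgeR adjusted p 1.0). Across the other settings it ran from -1.12 to 0.80, so neither a larger effect in thalamus nor in cortex was shown. Between regions Cxcl10 differed by 0.62 ± 0.93 (SE) in ret/ret and, without the filter, 0.60 ± 0.75 (SE) in ret/wt animals.

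The 250 bases before the RefSeq start of Cxcl10 are shown because its mean was higher in ret/ret in both regions. That also held for Ccl4, Ccl6, Ccl9, Ccl12, Cxcl12 and Cxcl16. Beside it are the bases of Ccl3 and Ccl6, whose ret/ret libraries stood apart in thalamus. The sequences are on the gene's strand, 5′ to 3′, from RefSeq on GRCm38.p6: chr5:92348890-92349139 for Cxcl10, chr11:83649379-83649628 for Ccl3 and chr11:83593088-83593337 for Ccl6, all on the - strand. Capitals mark the motifs searched, on both strands: the interferon response element core (GAAA, 2 bases of any kind and GAAA again), the NF-kB site (GGGA, 4 bases of any kind and CC), the AP-1 site TGANTCA and the PU.1 core GAGGAAG.
Cxcl10: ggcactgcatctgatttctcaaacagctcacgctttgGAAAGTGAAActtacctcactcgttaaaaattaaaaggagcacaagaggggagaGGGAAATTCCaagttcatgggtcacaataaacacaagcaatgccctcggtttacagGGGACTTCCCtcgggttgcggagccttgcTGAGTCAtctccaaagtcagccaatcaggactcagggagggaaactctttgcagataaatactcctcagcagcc
Ccl3: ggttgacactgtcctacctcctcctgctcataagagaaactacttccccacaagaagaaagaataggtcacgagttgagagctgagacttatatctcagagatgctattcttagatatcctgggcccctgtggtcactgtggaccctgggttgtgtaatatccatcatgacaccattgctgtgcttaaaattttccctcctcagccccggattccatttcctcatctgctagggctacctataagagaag
Ccl6: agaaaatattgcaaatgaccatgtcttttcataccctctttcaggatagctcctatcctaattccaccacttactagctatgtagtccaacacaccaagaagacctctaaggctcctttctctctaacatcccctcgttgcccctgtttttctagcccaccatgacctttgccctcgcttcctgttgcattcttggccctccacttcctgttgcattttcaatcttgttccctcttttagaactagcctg
In Cxcl10 the capitals are, from 5′ to 3′, GAAAGTGAAA beginning 213 bases before the start, GGGAAATTCC at 159, GGGACTTCCC at 103 and TGAGTCA at 74. Among all 32851 RefSeq promoters, 2.98% held the interferon response element core in these 250 bases, 17.6% the NF-kB site, 6.75% the AP-1 site and 10.6% the PU.1 core. Ccl3 and Ccl6 held none of the 4 motifs in this window. Among members whose sequence is not shown, Ccl9 held the AP-1 site (TGAATCA at 53). Cx3cl1 held the PU.1 core (CTTCCTC, its reverse complement, at 67), and Cxcl12 and Ccl12 held none. Of the 10 members 7 had an entry in the RefSeq table (Cxcl10, Cxcl12, Cx3cl1, Ccl3, Ccl6, Ccl9 and Ccl12), and Ccl2, Ccl4 and Cxcl16 did not. A motif match is a description of letters and shows no binding.

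Interferon-stimulated genes were read beside Cxcl10. Of 14 tested, 14 had a positive log2 fold change for ret/ret against ret/wt in cortex, with a median of 1.23 (0.01 over all genes), 9 had an unadjusted p under 0.05 with the higher mean in ret/ret (2.62% of all genes) and 0 were called in edgeR. In cortex Gbp2, a guanylate-binding GTPase, averaged 10.6 CPM over ret/ret libraries (SD 1.70, n = 4) and 3.70 CPM over ret/wt libraries (SD 0.785, n = 4), which gives a log2 value of 1.54 ± 0.26 (SE, edgeR adjusted p 0.225). Iigp1, an immunity-related GTPase, differed by 2.06 ± 0.40 (SE), Usp18, which removes the ubiquitin-like Isg15 from proteins, by 1.85 ± 0.43 (SE), and Ifit1 by 0.97 ± 0.27 (SE). The ret/ret and ret/wt cortex libraries did not overlap in these 4 genes or in 2 others of the list, as for 1.58% of all genes with ret/ret the higher. Endothelial markers in cortex had sums of 188 to 405 CPM in ret/ret and 143 to 210 CPM in ret/wt, and these ranges overlapped. In cortex 6 of 8 were positive, with a median of 0.68, and 0 were called. At an unadjusted p under 0.05, 3 had the higher mean in ret/ret (2.62% of all genes) and 1 the lower (1.14% of all genes). In thalamus 8 of 8 endothelial markers were positive, with a median of 0.56, and 0 were called. Their thalamus sums were 199 to 446 CPM in ret/ret and 210 to 262 CPM in ret/wt. Their part in the Cxcl10 and interferon values was not tested. Of the interferon-stimulated genes, 13 of 14 were positive in thalamus with a median of 0.69. There 4 had an unadjusted p under 0.05 (3.05% of all genes in that direction) and 0 were called. Ifi44 was at 1.62 ± 0.52 (SE) and Ifit3 at 1.35 ± 0.44 (SE). Between the 2 regions of ret/ret animals 0 of 14 were called and 0 had an unadjusted p under 0.05. Of the inducing cytokines, 4 of 12 listed passed the filter and 0 were called, and Csf1, a growth factor of microglia, had log2 fold changes of 0.52 ± 0.25 (SE) in thalamus and 0.44 ± 0.19 (SE) in cortex. Of 9 targets and feedback genes of NF-kB, 0 were called, with a median of -0.11 in thalamus and 0.12 in cortex.

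Cxcl12 (ENSMUSG00000061353, chromosome 6, 117168535 to 117181367, + strand) encodes SDF-1, the ligand of Cxcr4 and of the scavenging receptor Ackr3. It was among the steadier members in cortex, at 55.2 to 65.4 CPM in ret/ret and 47.8 to 60.8 CPM in ret/wt, at a log2 fold change of 0.18 ± 0.14 (SE). In ret/ret thalamus it was at 106, 37.0, 45.3 and 80.2 CPM and in ret/wt thalamus at 44.9, 37.7, 15.1 and 68.7 CPM. The thalamus groups overlapped between 37.0 and 68.7 CPM, and the log2 fold change was 0.72 ± 0.46 (SE), or 0.40 without ret/ret replicate 1. It was not called in either region (edgeR adjusted p 1.0). The SD in thalamus, 32.0 CPM in ret/ret and 22.1 CPM in ret/wt, stood beside 4.5 and 5.67 CPM in cortex. Markers of fibroblasts and meninges varied in the same libraries, with sums of 466, 76.1, 73.6 and 196 CPM in ret/ret thalamus and 254, 185, 61.2 and 370 CPM in ret/wt thalamus. The highest library of each thalamus group was the same for Cxcl12 and for these markers. In cortex the highest libraries differed, and the marker sums were 45.1 to 220 CPM in ret/ret and 103 to 176 CPM in ret/wt. What part these markers have in the spread was not tested. Between regions Cxcl12 differed by 0.13 ± 0.31 (SE) in ret/ret and -0.38 ± 0.37 (SE) in ret/wt animals.

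Cxcl16 (ENSMUSG00000018920, chromosome 11, 70453983 to 70459984, - strand), a membrane-bound ligand of Cxcr6 and a scavenger receptor, was at 6.78, 2.06, 2.96 and 5.03 CPM in ret/ret thalamus and at 1.81, 2.05, 1.08 and 9.88 CPM in ret/wt thalamus. Replicate 4 of ret/wt was the highest of all 16 libraries, while the other 3 lay at or below the lowest ret/ret library. The log2 fold change was 0.20 ± 0.70 (SE), and without that library 1.41 (edgeR adjusted p 0.496). The same library held the largest sums of markers of pericytes and smooth muscle (370 CPM against 94.3 to 172 CPM in the other ret/wt thalamus libraries) and of fibroblasts and meninges (370 CPM against 61.2 to 254 CPM). Their part in its Cxcl16 level was not tested. In cortex Cxcl16 was at 4.14, 5.32, 0.949 and 1.24 CPM in ret/ret and at 2.04, 1.24, 2.07 and 0.597 CPM in ret/wt, a log2 fold change of 0.99 ± 0.63 (SE), or 0.51 without ret/ret cortex replicate 2, which held cerebellum markers. Between regions it differed by 0.54 ± 0.61 (SE) in ret/ret and 1.34 ± 0.72 (SE) in ret/wt animals, the latter 0.15 without ret/wt thalamus replicate 4.

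Cx3cl1 (ENSMUSG00000031778, chromosome 8, 94772009 to 94782427, + strand), the neuronal ligand of the microglial receptor Cx3cr1, was lower in thalamus than in cortex. In ret/wt animals it was at 1267, 893, 667 and 598 CPM in cortex and at 332, 319, 419 and 317 CPM in thalamus. All cortex libraries lay above all thalamus libraries, as for 11% of all genes, and 0 of 4 animals had the higher value in thalamus. The log2 difference was -1.29 ± 0.25 (SE), the edgeR adjusted p was 0.00835, and across the other settings that p ran from 3.4e-05 to 0.0322. Cx3cl1 was the member called in this comparison under every setting tried, the fit with the animal as a replicate block included.

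In ret/ret animals Cx3cl1 was at 722, 263, 1130 and 607 CPM in cortex and at 224, 390, 366 and 208 CPM in thalamus. Thalamus was the lower of the pair in 3 animals, and replicate 2 was the exception. The log2 difference was -1.19 ± 0.40 (SE), the edgeR adjusted p was 0.0938, and across the other settings that p ran from 0.0117 to 0.254. The cortex library of replicate 2, with 2786 CPM of cerebellum markers and 692 CPM of cortical neuron markers against 1291 to 2462 CPM in the other 3, also had the lowest Cx3cl1 of the cortex libraries. Without it the log2 difference was -1.45 (edgeR adjusted p 0.0162). The mean thalamus level was 0.436 of the cortex level in ret/ret and 0.405 in ret/wt animals. The interaction was 0.11 ± 0.50 (SE), so the size of the regional difference was not shown to depend on genotype. Between genotypes the log2 fold change was -0.20 ± 0.23 (SE) in thalamus and -0.32 ± 0.40 (SE) in cortex, or -0.05 without ret/ret cortex replicate 2. Markers of all neurons summed to 2901 to 5575 CPM in ret/ret thalamus and 3550 to 5989 CPM in ret/wt thalamus, against 5136 to 7916 and 5132 to 7361 CPM in cortex, and their part in the regional difference was not tested.

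**Figure D4:**
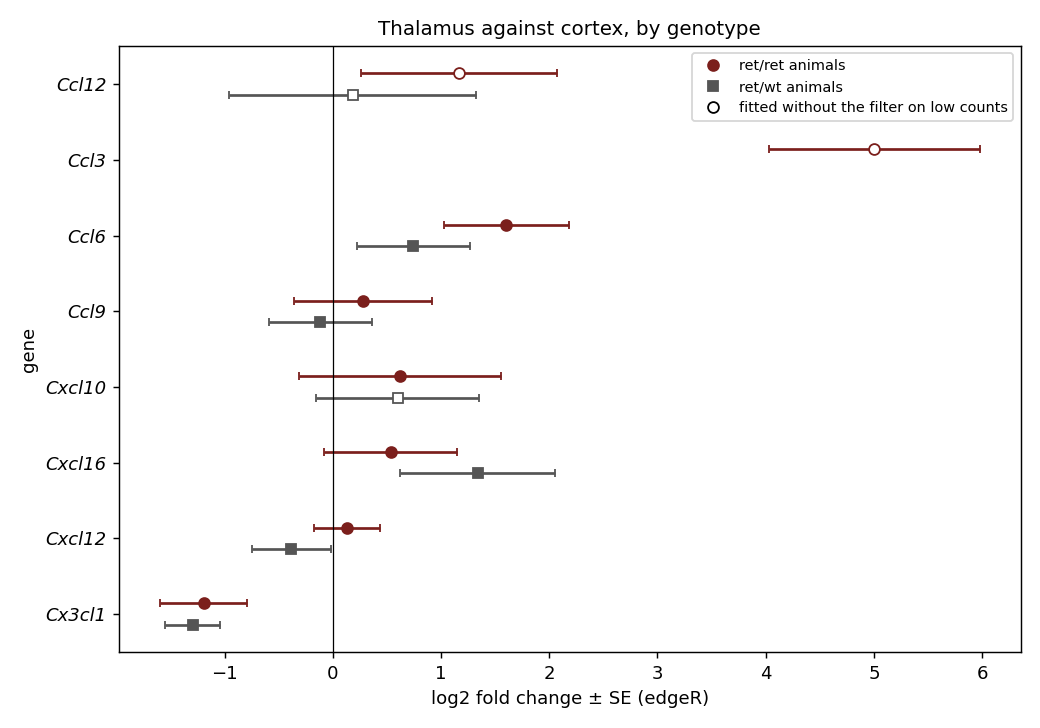
Log2 fold change of thalamus against cortex (x axis, with the SE as bar) for each gene (y axis) in ret/ret animals (circles) and ret/wt animals (squares). Open symbols are fits without the filter on low counts, and Ccl3 is not drawn for ret/wt animals, where nearly all libraries held 3 counts or fewer. Ccl3 lies near 5 in ret/ret animals, and Cx3cl1 lies near -1.2 in both genotypes.

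Cx3cr1, the receptor of Cx3cl1 and a microglial gene, was higher in ret/ret than ret/wt thalamus without overlap, as were 1.7% of all genes. It was at 67.8, 65, 59.3 and 52.7 CPM in ret/ret thalamus and at 36.0, 40.5, 38.7 and 29.1 CPM in ret/wt thalamus. Its fold change, 0.80 ± 0.17 (SE) on the log2 scale, was not called (edgeR adjusted p 0.676). Per 1000 CPM of microglia markers it was at 109 to 139 CPM in ret/ret thalamus and 78.5 to 132 CPM in ret/wt thalamus, and these ranges overlapped. In cortex it was at 36.9 to 79.7 CPM in ret/ret and 32.9 to 70.7 CPM in ret/wt, a log2 fold change of 0.33 ± 0.29 (SE). The interaction for Cx3cr1 was 0.45 ± 0.35 (SE, edgeR adjusted p 1.0).

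**Figure D5:**
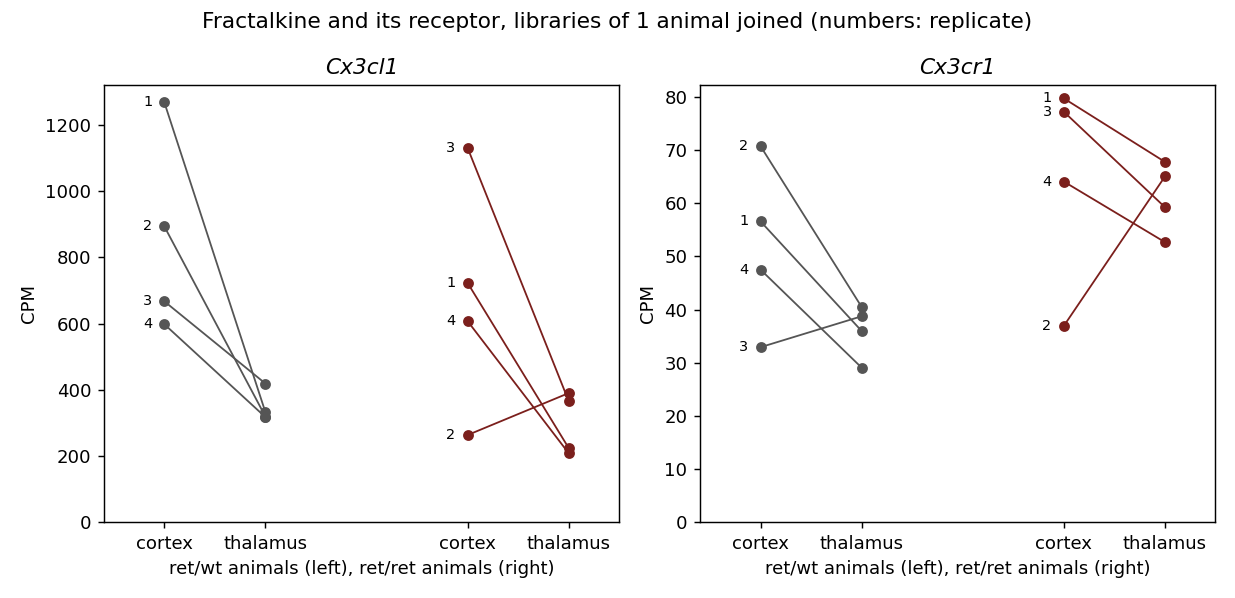
Levels of Cx3cl1 (left) and its receptor Cx3cr1 (right) in CPM (y axes, from 0), with the cortex and thalamus libraries of each animal joined and ret/wt animals to the left of ret/ret animals (x axes). The Cx3cl1 line falls from cortex to thalamus in 7 of 8 animals, and ret/ret replicate 2 is the exception; for Cx3cr1 the ret/ret thalamus libraries, at 52.7 to 67.8 CPM, lie above the ret/wt thalamus libraries.

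Of the 9 receptors of these chemokines, 5 passed the filter in the thalamus comparison, and 0 were called there or in cortex. Cxcr4, the receptor of Cxcl12, was at 0.358 to 4.21 CPM over all libraries, and its log2 fold change was 0.66 ± 0.70 (SE) in thalamus and 0.41 ± 0.63 (SE) in cortex. Ackr3 was at 4.53 to 11 CPM, with values of -0.02 ± 0.28 (SE) and -0.46 ± 0.27 (SE). Ccr2, the receptor of Ccl2 and Ccl12, was at 0.0598 to 1.56 CPM, with values of 0.49 ± 0.91 (SE) and 0.09 ± 0.66 (SE). Ccr1, Ccr3, Cxcr3 and Cxcr6 did not pass the filter in either genotype comparison. Their summed counts in ret/ret and ret/wt thalamus were 48 and 27 for Ccr1, 1 and 2 for Ccr3, 20 and 7 for Cxcr3 and 20 and 10 for Cxcr6. In ret/ret thalamus the counts by replicate were 31, 8, 2 and 7 for Ccr1 and 6, 8, 1 and 5 for Cxcr3. For Cxcr6 they were 7, 0, 1 and 12, and these counts were not scaled to depth.

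Among 16 other chemokine receptors, 5 passed the filter in thalamus against cortex of ret/ret animals, and 1 rose and 1 fell, where 9.5% of all genes were called. The one that rose was Ccrl2, which binds chemerin without signalling. It was at 2.79, 1.56, 2.81 and 0.855 CPM in ret/ret thalamus and at 0.508, 0.349, 0.548 and 0.130 CPM in ret/ret cortex, higher in thalamus in 4 of 4 animals. Its log2 difference was 2.36 ± 0.58 (SE, edgeR adjusted p 0.0343), and in ret/wt animals it was 0.90 ± 0.42 (SE, adjusted p 0.199), also higher in thalamus in 4 of 4 animals and with no overlap. Between genotypes Ccrl2 had a log2 fold change of 1.28 ± 0.47 (SE) in thalamus, and the interaction was 1.47 ± 0.69 (SE), with edgeR adjusted p-values of 1.0 for both. The one that fell was Ackr2, a scavenger of CC chemokines. It was at 2.69, 0.83, 2.99 and 4.82 CPM in ret/ret cortex and at 0.443, 0.0894, 0.242 and 0.101 CPM in ret/ret thalamus. Its log2 difference was -3.64 ± 0.71 (SE, edgeR adjusted p 0.0147). In ret/wt animals Ackr2 was at 18.2, 3.43, 2.24 and 1.41 CPM in cortex, and its 4 thalamus libraries held 0 to 2 counts each. It was called there too (adjusted p 0.00346 in edgeR), at a ratio of thalamus to cortex of 0.0129 per depth (95% interval 0.00417 to 0.0305). Ccrl2 held 2 to 15 counts in the ret/ret cortex libraries and Ackr2 2 to 10 counts in those of ret/ret thalamus. Each could therefore pass the filter only through the region where it was high, as could Ackr2 in ret/wt animals.

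Other ligands gave few values, since 4 of 28 listed passed the filter in each genotype comparison, and 0 were called. In cortex 1 of them, Ccl28, had an unadjusted p under 0.05 with the lower mean in ret/ret, as 1.14% of all genes did. Ccl28 averaged 1.48 CPM over ret/ret libraries (SD 0.302, n = 4) and 3.42 CPM over ret/wt libraries (SD 1.76, n = 4), which gives a log2 value of -1.19 ± 0.44 (SE). Cxcl14, at 71.0 to 75.4 CPM in the group means, was the most abundant of them. Of 10 proteases that shed or trim chemokines, 9 passed the filter in thalamus between genotypes and 0 were called. Ctss, a lysosomal protease of microglia, averaged 103 CPM over ret/ret thalamus (SD 19.4, n = 4). Its mean over ret/wt thalamus was 64.3 CPM (SD 9.69, n = 4), which gives a log2 value of 0.71 ± 0.20 (SE). The groups did not overlap, as for 1.7% of all genes with ret/ret the higher. Between the regions of ret/ret animals 1 of 9 was called, near the 9.5% of all genes. This was Adam10, which sheds Cx3cl1 and Cxcl16 and fell by 0.65 on the log2 scale in thalamus (SE 0.16, edgeR adjusted p 0.0328). In ret/wt animals that value was -0.49 ± 0.25 (SE) and was not called. Of 14 tested genes of chemokine signalling in leukocytes, 12 were positive in thalamus between genotypes with a median of 0.39 (-0.02 over all genes), 6 had an unadjusted p under 0.05 with the higher mean in ret/ret (3.05% of all genes) and 0 were called. The leukocyte integrin chains Itgal and Itgb2 differed by 2.08 ± 0.64 (SE) and 1.44 ± 0.46 (SE), the Rac activator Dock2 by 0.77 ± 0.31 (SE) and the integrin activator Fermt3 by 1.11 ± 0.45 (SE) on the log2 scale. In cortex 0 of these 14 genes had an unadjusted p under 0.05.

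The genes most like each member over the 16 libraries were found by Pearson r of log2 CPM among 12772 genes, as a description with no test, and the libraries share animals, regions and depth. For Cx3cl1, Cobl (r = 0.945) was among the nearest. For Cxcl10 they were the interferon-induced GTPase gene Gbp5 (r = 0.906) and the endothelial phosphatase gene Ptprb (r = 0.905). The nearest to Ccl9 were Cyth4 (r = 0.860) and Selplg (r = 0.853), both genes of leukocytes, and the nearest to Ccl6 were Slc25a39 (r = 0.887) and Dcxr (r = 0.877). Cxcl12 was most like Prelp (r = 0.880) and Erbb2 (r = 0.870), and Cxcl16 most like S100a11 (r = 0.911) and Myl12a (r = 0.896). Ccl2, Ccl3, Ccl4 and Ccl12 did not pass the filter over 16 libraries and were not compared.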

How the data were processed

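RNA was sequenced from cortex and thalamus of 8 mice, in 16 libraries that were polyA-selected and stranded, per the labels. The deposited values are expected counts per gene, which the authors made with kallisto 0.44.0 on GRCm38.p6, per the submitters' processing notes. How transcripts were summed to genes is not given in the sources used here. All nonzero values (100% of them) were not whole, and they were rounded. Symbols came from GENCODE M21 for 98.98% of 21804 identifiers.

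A comparison of 2 groups used only its 8 libraries, and the interaction used 16, in R 4.3.3 with edgeR 4.0.16 (filterByExpr, minimum count 10, minimum total 15; TMM; quasi-likelihood test), with Benjamini-Hochberg adjustment over all genes tested at 0.05. SE is the log2 fold change divided by the root of the F statistic. CPM came from TMM over 16 libraries, log2 CPM had a prior count of 1, and levels per kilobase used the union of exons. Ratios of summed counts have exact binomial 95% intervals, and floors are 3 counts per library. Intervals and floors cover counting error only. Members with a group median above 3 counts that failed the filter were also fitted without it. The procedure was tested on simulated data. There the changes were planted only in genes above a set mean level and with 1 spread for all genes. That test therefore does not cover the members near the floor. Python 3.11.15 with pandas 2.3.3, scipy 1.17.1 and matplotlib 3.10.9 made tables and plots.

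The labels give cortex and thalamus of the same animal the same replicate number within a genotype, so these are paired by animal. The main fits did not use this pairing, and the replicate block is the alternative that did. The correlations of same-numbered residuals were -0.004 to 0.239 in ret/ret and -0.017 to 0.192 in ret/wt. Equal numbers across genotypes are different animals. The members, the lists of pathway and marker genes, and the alternatives were chosen with earlier results of these data known. Named were the members and their receptors, up to 4 genes per list and comparison with the smallest unadjusted p, and the 2 genes most like each member by Pearson r. A receptor and a gene most like a member are not reported here. Of 209 listed genes, 8 (Ccr6, Ccr8, Ccl1, Ccl26, Cxcl17, Rac2, Ifnb1 and Myh11) were not analysed here. Alternatives were DESeq2 1.42.0 size factors, library size alone, upper-quartile scaling, the DESeq2 test, voom of limma 3.58.1, no filter, at least 1 CPM in 4 libraries, a single fit of 16 libraries, leaving out each library or the 2 animals with Y-linked reads, and a replicate block.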

Additional observations from a re-analysis of the deposited data

Results flagged for a closer look

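Of 62 sets of 4 libraries checked, 8 had 1 library far from the other 3. The sets came from members and their receptors in each group, but not all such sets were checked. Chance marks about 1 in 20 where values are normally distributed. Sets of low counts need not be, so the 8 sets are not set against that rate. In ret/ret thalamus, replicate 1 had 9.89 CPM of Ccl6, while the other 3 had 2.77 to 3.93 CPM. Cxcl16 was at 9.88 CPM in ret/wt thalamus replicate 4 against 1.08 to 2.05 CPM. Cx3cl1 was at 419 CPM in ret/wt thalamus replicate 3 against 317 to 332 CPM. Ccl3 was at 0.217 CPM in ret/wt cortex replicate 4 against 0 in the other 3, and Ccl12 at 0 in ret/wt thalamus replicate 2 against 0.239 to 0.259 CPM, both within a few counts of the floor. Among receptors, Ccr1 was at 0.706 CPM in ret/wt cortex replicate 1 against 0.292 to 0.326 CPM, Cxcr3 at 0 in ret/wt cortex replicate 4 against 0.146 to 0.176 CPM, and Ackr3 at 9.26 CPM in ret/wt thalamus replicate 2 against 8.46 to 8.49 CPM.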

How the results depend on the processing

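Of 38 log2 fold changes of members, 28 kept their sign under every alternative run, and 35 of 716 alternative values had the opposite sign. The number of members called stayed at 0 between genotypes in thalamus and in cortex and in the interaction, and at 1 (Cx3cl1) between regions in ret/wt animals. Between regions in ret/ret animals it was 0 as reported and 2 with DESeq2 (Ccl6 and Cx3cl1). It was 1 without the filter (Ccl3), with all 16 libraries in 1 fit (Cx3cl1), without the 2 animals with Y-linked reads (Cx3cl1) and with the replicate block (Ccl6). Leaving out 1 library gave 0 to 2. Of those 8 fits, 5 tested Ccl3 and called it, and 1 called Cx3cl1. Ccl3 passed the filter in them through ret/ret thalamus, the group where it is high. The replicate block changed no other call of a tested member. Across genotypes the block joins different animals, with residual correlations of -0.125 to 0.151.

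Values of the opposite sign were -0.085 for Ccl9 between regions in ret/ret animals without the animals with Y-linked reads and 0.0060 for Ccl9 in ret/wt animals with upper-quartile scaling. In the interaction they were -0.0059 with DESeq2, -0.15 with voom and -0.22 with the block for Cxcl10, 0.020 with the block for Cxcl16 and -0.10 without the animals with Y-linked reads for Cx3cl1. For Ccl12 without the filter they were -0.093 with voom and -0.95 without those animals. The cause was not tested. Leaving out 1 library gave -0.049 to 0.67 for Ccl9 between regions in ret/ret and -0.51 to 0.23 in ret/wt animals, -0.51 to 1.44 for Cxcl10 and -0.18 to 0.37 for Cxcl12 between regions in ret/ret animals, and -0.15 to 1.41 for Cxcl16 between genotypes in thalamus. For Ccl12 it gave -0.17 to 1.16 between regions in ret/wt animals. In the interaction the ranges were -1.12 to 0.80 for Cxcl10, -1.11 to 0.38 for Cxcl16, -0.15 to 0.47 for Cx3cl1 and -0.019 to 1.33 for Ccl12. Fits without the filter under a further alternative were chosen after seeing the data. Depth limits Ccl2 and Ccl4, and in ret/wt libraries Ccl3 and Cxcl10, to a few counts each.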
